A study of Mus musculus with 2 samples.

Results

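The genes described here are 10 immediate early and AP-1 genes, Jun, Junb, Jund, Fos, Fosb, Egr1, Atf3, Ier2, Ier3 and Dusp1, chosen by name and found by gene identifier among 43346 Ensembl genes of the deposited tables. They were measured in erythroblasts, the nucleated precursors of red cells, by sequencing of polyadenylated RNA as paired ends. The labels give 1 group of 2 libraries, biological replicates 1 and 2, from Ter119-positive mouse liver cells taken at 14.5 days of embryonic age. Both come from male and female embryos pooled together, and the labels name no strain, genotype, treatment or control. The libraries have separate biosample entries under 1 donor entry, and part of their spread may thus be technical. They are called library 1 and library 2 below. There was no condition to compare, and no statement can be made on induction of these genes.

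Immediate early genes are transcribed within minutes of a signal such as a growth factor, a cytokine or stress, without the need for new protein synthesis. Many of their messenger RNAs decay fast. Proteins of the Jun family bind DNA as dimers with each other or with proteins of the Fos family, and these dimers make up the transcription factor AP-1. Fos proteins do not form stable dimers with themselves and depend on a Jun partner. In red cell precursors, signals of the erythropoietin receptor and of Kit reach these genes through MAP kinases, and MAP kinase phosphatases such as Dusp1 shut those kinases off.

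Rounded counts came to 51190552 in library 1 and 44256272 in library 2; without the globin genes they were 14155915 and 12299417. Globin messengers took 86.0% and 84.4% of all TPM (transcripts per 1000000, a relative abundance corrected for length), so every level below is a small part of a total that globin sets. All 8 erythroid markers examined were at 1 TPM or more in both libraries, from Hba-a1, Hbb-bs and Slc4a1 at the top to Gata1 with 37.4 and 48.9 TPM. Summed markers of other cell types were low next to the erythroid markers. They came to 11.5 and 18.0 TPM over 10 macrophage genes and 10.7 and 13.2 TPM over 10 neutrophil genes. Over 8 megakaryocyte genes they were 11.2 and 14.4 TPM, and over 8 hepatoblast genes 15.6 and 16.6 TPM. In each library these sums lay between the levels of the members Junb (9.63 and 11.4 TPM) and Fos (18.8 and 21.9 TPM). Over the endothelial, mast cell and basophil, and lymphoid lists the sums were 3.44 and 3.75, 1.47 and 2.10, and 0.29 and 0.31 TPM. At 1 TPM or more in both libraries were 3 of 10 macrophage, 3 of 10 neutrophil, 2 of 8 megakaryocyte and 3 of 8 hepatoblast genes. So were 1 of 7 endothelial genes, and 0 of the lymphoid and of the mast cell and basophil genes. The share over all protein-coding genes was 20.0%, so the first 4 of these lists were above it. The highest macrophage markers were C1qc with 422 and 570 counts, C1qa with 305 and 312 and C1qb with 240 and 303, and the lowest, Fcgr1, had 0 and 1. Among neutrophil markers Mpo had 797 and 856 counts, Prtn3 291 and 257 and Elane 1.97 and 1.89 TPM, while Ly6g had 0 counts in both libraries. Among megakaryocyte markers Gp9 had 545 and 530.0 counts, Itga2b 208 and 186 and Vwf 110.0 and 169, while Clec1b had 0 in both. Among hepatoblast markers Apoa1 had 525 and 551 counts, Dlk1 804 and 611 and Trf 93 and 38, while Serpina1b had 0 in both. Of mast cell and basophil genes Hdc had 39 and 74 counts, Prss34 30 and 69 and Mcpt8 36 and 21, while Fcer1a had 0 in both. Kit, on the same list, had 36 and 9 counts, or 0.07 and 0.02 TPM. The erythroid marker Epor, the erythropoietin receptor gene, had 70.9 and 114 TPM. The endothelial genes Egfl7 (268 and 194 counts), Eng (190.0 and 193) and Plvap (34 and 49) were the highest of their list and Tek (1 and 0) the lowest. The lymphoid genes Cd79a, Pax5 and Cd79b had 3 to 12 counts, and Rag1, Cd3e and Gzmb had 0 in both libraries. A gene at 0 may hide as many as 3 counts, which is 0.0586 and 0.0678 CPM (counts per 1000000). The part of these other cells in the levels of the immediate early genes was not tested. In bulk RNA, fewer cells that express a gene and less RNA per cell cannot be told apart.

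Promoters of immediate early genes carry sites through which kinases act, among them the cyclic AMP response element (CRE, TGACGTCA), the AP-1 site (TGACTCA or TGAGTCA) and the CArG box of serum response factor. RefSeq windows on GRCm38.p6, the mm10 assembly, were found for 8 of the 10 genes, without Egr1 and Ier2. The window of Jund lies before its RefSeq start, which is 1210 bases before its start in the GENCODE M21 annotation. The bases just before that second start were not searched. The 150 bases before the RefSeq start are shown for the 4 genes whose windows held one of the sites marked. They run 5′ to 3′ on the gene's strand. Capitals mark the CRE, 8-base words with 1 mismatch to it, and the TATA box (TATAAA or TTTATA). The windows lie at chr17:26508473-26508622 on the minus strand for Dusp1, chr12:85473740-85473889 on the plus strand for Fos, chr4:95052223-95052372 on the minus strand for Jun and chr1:191183334-191183483 on the minus strand for Atf3. In M21 the main transcripts of Dusp1 and Atf3 begin at 26508519 and 191183340, inside these windows. The last bases shown for these genes thus lie within those transcripts. The windows of Fosb and Ier3 also reach past their M21 starts.
Dusp1: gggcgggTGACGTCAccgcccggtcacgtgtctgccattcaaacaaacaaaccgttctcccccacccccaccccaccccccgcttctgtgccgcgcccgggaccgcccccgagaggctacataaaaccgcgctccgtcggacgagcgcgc
Fos: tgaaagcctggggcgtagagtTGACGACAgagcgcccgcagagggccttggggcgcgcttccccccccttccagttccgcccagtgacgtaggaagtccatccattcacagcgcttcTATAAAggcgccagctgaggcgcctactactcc
Jun: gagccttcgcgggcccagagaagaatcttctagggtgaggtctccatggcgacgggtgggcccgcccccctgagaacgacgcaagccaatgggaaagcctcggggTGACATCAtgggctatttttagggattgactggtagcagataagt
Atf3: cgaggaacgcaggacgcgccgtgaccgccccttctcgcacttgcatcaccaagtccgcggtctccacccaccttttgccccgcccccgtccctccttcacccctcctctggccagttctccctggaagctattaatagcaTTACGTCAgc

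Both strands of the 250 bases before the RefSeq start were searched, and positions are counted from that start. The full CRE was found in 1 of the 8 windows, that of Dusp1, at -143 to -136. It was found in 1.55% of 32851 mouse windows of the same length. Words with 1 mismatch to the CRE stood in 4 of 8, against 9.29% of all windows; this search was added after the windows had been read. They lie at -45 to -38 in Jun, at -10 to -3 in Atf3, at -129 to -122 in Fos and at -191 to -184 in Dusp1, the last upstream of the printed bases. The word in Atf3 spans the M21 start of that gene, so part of it lies within the M21 transcript. The shorter site TGACG or CGTCA, which a full CRE also contains, was in 5 of 8 windows and in 17.8% of all. A TATA box stood in 1 of 8, at -33 to -28 in Fos, and in 12.4% of all windows. The GC box (GGGCGG) was in 6 of 8 and in 32.7% of all, and the CCAAT box in 3 of 8 and in 33.8%. A GATA site (AGATAA or TGATAA) was in 2 of 8 and in 16.6%, and an Egr site (GCGTGGGCG or GCGGGGGCG) in 1 of 8 and in 3.06%. GC content of the 8 windows ran from 47.6% in Jund to 68.8% in Fosb, and the mouse windows were not matched to it. The letters of the AP-1 site and of the CArG box occurred in 0 of 8 windows, and in 4.46% and 1.47% of all. Sites farther from the start were not searched, nor were any of Egr1 and Ier2, which had no window. A match is a description of letters, and neither binding nor promoter activity was measured.

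Mean levels of the 10 genes ran from 539 TPM for Jund down to 0.235 TPM for Atf3. At 1 TPM or more in both libraries were 8 of the 10, against 20.0% of 21474 protein-coding genes. The exceptions were Egr1 and Atf3. The median of the 10 mean levels was 15.5 TPM and that of all protein-coding genes 0.02 TPM. Since the members were chosen with earlier results of these data known, these contrasts are a description and not a test. Together the 10 genes summed to 653 TPM in library 1 and 855 TPM in library 2 (754 ± 142, SD, n = 2), or 0.467% and 0.549% of the TPM outside the globin genes. Jund and Dusp1 made up 87.6% and 89.0% of that sum.

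Among the Jun proteins, JunD is the member usually present in resting cells, and Jun and JunB are the more inducible ones. Jund (ENSMUSG00000071076.5, 1 exon, chr8:70698949-70700616 on the plus strand in the GENCODE M21 annotation of mm10) had 463 TPM in library 1 and 615 TPM in library 2 (539 ± 108, SD, n = 2), from 124027 and 128529 counts. It ranked 43 among the protein-coding genes. Both libraries placed it over 4 times above the next member. Jun (ENSMUSG00000052684.4, 1 exon, chr4:95049034-95052222, minus strand) had 13.9 and 17.1 TPM (15.5 ± 2.21) and Junb (ENSMUSG00000052837.5, 1 exon, chr8:84976910-84978718, minus strand) 9.63 and 11.4 TPM (10.5 ± 1.24). Jund therefore took 95.2% and 95.6% of the summed level of the Jun family, Jun 2.86% and 2.65%, and Junb 1.98% and 1.77%. Its level was 33.2 and 36.1 times that of Jun. Jun exceeded Junb by a factor of 1.45 in library 1 and 1.499 in library 2, and their ranges did not overlap.

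The level of Jund depends on the transcript length assumed. The deposited tables give it 2878 bases, the length of the RefSeq gene, whose start lies 1210 bases before that of the M21 transcript of 1668 bases. With the same counts at the M21 length, Jund came to 830 and 1101 TPM (966 ± 192, SD, n = 2). The sum of the 10 genes was 1171 TPM on average when the lengths of both Jund and Fos were changed in this way. Gm11175, an antisense gene, overlaps Jund over 919 bases, and 50.1% of the 31-base words of the Jund transcript occur in it on the opposite strand. It was assigned 5 and 10 counts. Junos, antisense to Jun, had 0 and 3 counts. The strand setting of the counting is not given in the sources used here, and without strand the reads of such pairs cannot be told apart.

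The Fos family supplies the partners that strengthen DNA binding of Jun proteins, and its summed level was far below that of the Jun family. Fos (ENSMUSG00000021250.9, 4 exons, chr12:85473890-85477273, plus strand) had 18.8 TPM in library 1 and 21.9 TPM in library 2 (20.4 ± 2.18, SD, n = 2). Fosb (ENSMUSG00000003545.2, 4 exons, chr7:19302696-19310051, minus strand) had 4.95 and 5.49 TPM (5.22 ± 0.382). Fosl1 and Fosl2, which encode the Fos relatives Fra-1 and Fra-2, had 6 and 23 counts and 10 and 4 counts, or at most 0.19 TPM. The family summed to 23.8 and 27.6 TPM, which was 4.90% and 4.29% of the Jun family level (4.59 ± 0.432, SD, n = 2). Set against Jun and Junb alone it was 101% and 97.0%, but this rests on the mixture of Fos transcripts: it was 60.8% and 62.5% by expected counts, and 59.6% and 63.6% with all Fos counts at the length of its coding transcript. As a percent of the whole Jun family level, the Fos family was 2.62% with Jund at its M21 length or by expected counts, and 2.85% with all Fos counts at the length of the coding transcript.

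The other members have separate roles, and most neighbours in the order of levels were apart. Dusp1 (ENSMUSG00000024190.6, 4 exons, chr17:26505590-26508519, minus strand), a nuclear phosphatase of MAP kinases, had 109.6 and 145 TPM (127 ± 25.2, SD, n = 2) and ranked 163 among protein-coding genes. Ier2 (ENSMUSG00000053560.4, 1 exon, chr8:84661331-84662852, minus strand), an immediate early nuclear protein, had 17.4 and 21 TPM (19.2 ± 2.52). Ier3 (ENSMUSG00000003541.6, 2 exons, chr17:35821684-35822923, plus strand), an immediate early gene linked to cell survival, had 15.1 and 15.9 TPM (15.5 ± 0.530). All of these were clearly detected, with 1202 counts or more in each library.

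Egr1 and Atf3 were the low members. Egr1 (ENSMUSG00000038418.7, 2 exons, chr18:34859823-34864984, plus strand), a zinc finger transcription factor, had 0.65 and 0.93 TPM (0.79 ± 0.198, SD, n = 2) from 278 and 307 counts. Atf3 (ENSMUSG00000026628.9, 4 exons, chr1:191170296-191183340, minus strand), a stress-responsive factor that dimerises with Jun proteins, had 0.16 and 0.31 TPM (0.235 ± 0.106) from 29 and 44 counts. Both lay above the limit that a count of 0 allows. In falling order of mean TPM as deposited the genes were Jund, Dusp1, Fos, Ier2, Jun, Ier3, Junb, Fosb, Egr1 and Atf3. With all its counts at the length of its coding transcript Fos had a mean of 10.7 TPM, under Ier2, Jun and Ier3. The ranges over the libraries overlapped for the neighbours Fos and Ier2 and for Jun and Ier3, and were apart for the other 7 pairs of neighbours. As deposited, the steps from Dusp1 to Fos (6.25 times), from Fosb to Egr1 (6.61 times) and from Jund to Dusp1 (4.23 times) were the widest. Their order changes with Jund at its M21 length (mean 966 TPM) or with Fos at that of its coding transcript.

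**Figure D1:**
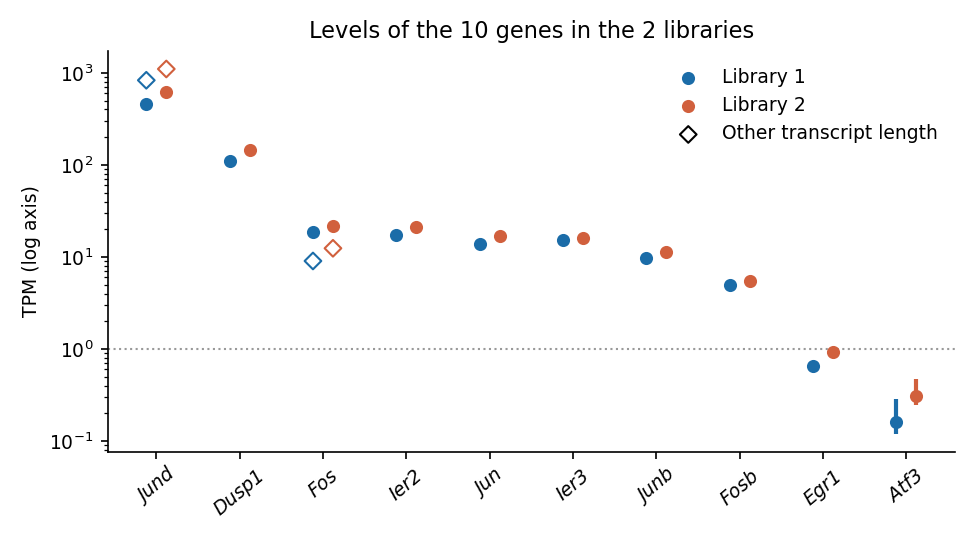
TPM on a log axis of each gene in library 1 and library 2 (filled points) with the deposited credibility intervals as bars, hidden by the points for most genes; open diamonds give Jund at its M21 transcript length and Fos with all counts at the length of its coding transcript, and the dotted line is 1 TPM. Jund at 463 and 615 TPM stands highest, and Egr1 and Atf3 lie under the line in both libraries. The TPM of Jund lies just above its interval in library 1 (457 to 462) and in library 2 (605 to 612).

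Transcripts could be compared for 9 members with 50 or more counts in each library, of which the deposited tables hold a single transcript for 6. The leading transcript by TPM was the same in both libraries for 9 of 9. For Fos it was not the coding one. A processed transcript of 795 bases, of which 551 lie in exons of the coding transcript and 244 outside them, held 77.9% of Fos TPM in library 1 and 65.1% in library 2. The coding transcript, of 2108 bases, held 22.1% and 34.9%, or 4.16 and 7.64 TPM. By expected counts the coding transcript had 46.1% and 61.6%, so the leader by counts was the processed transcript in library 1 and the coding one in library 2, and 8 of 9 members kept their leader by counts.

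The mixture sets the level of Fos, because the short transcript gives the same reads a higher TPM. Counts of Fos (1738 and 1864) and Fosb (1747 and 1513) were close in library 1, but Fos had 3.804 and 3.99 times the TPM of Fosb. With all Fos counts placed at the length of the coding transcript, Fos came to 9.03 and 12.4 TPM (10.7 ± 2.39, SD, n = 2), or 1.82 and 2.26 times Fosb, and its range then overlapped that of Junb. Dusp1 was held mostly by its coding transcript of 1990 bases, with 93.6% and 95.7% of its TPM, and a retained-intron transcript had 6.33% and 4.23%. Fosb has 7 transcripts in M21 and 1 in the deposited tables, so full-length FosB and its shorter splice form cannot be told apart. A single transcript took 100% of Egr1 and of Atf3, each of which has others in the tables.

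**Figure D2:**
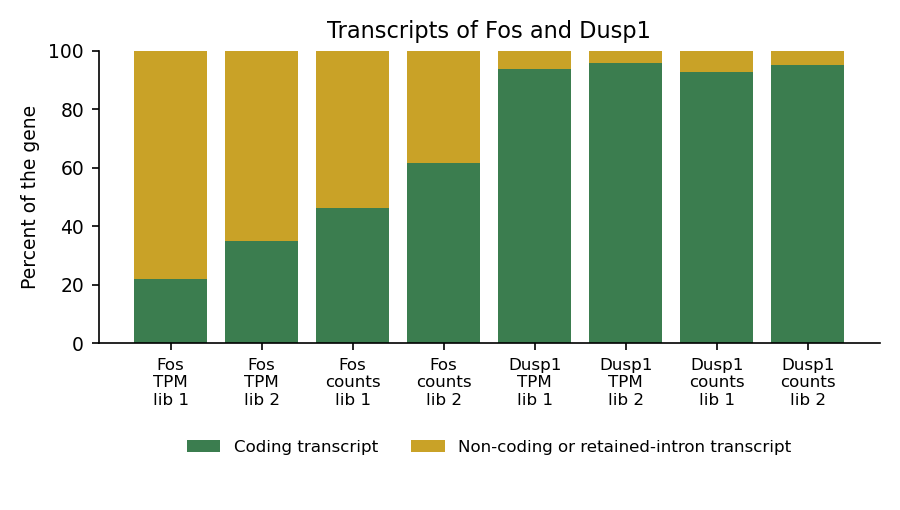
Percent of Fos and of Dusp1 assigned to the coding transcript (green) and to non-coding or retained-intron transcripts (yellow), by TPM and by expected counts in each library. The coding transcript of Fos makes up 22.1% and 34.9% by TPM but 46.1% and 61.6% by counts, whereas that of Dusp1 makes up 92.6% or more in each bar.

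A smaller share of each related list than of the members reached 1 TPM in both libraries, but the members were named with earlier results of these data known. Of all protein-coding genes 20.0% reached it. The shares were 16.7% of the AP-1 relatives, 41% of the other immediate early genes and 11.1% of the phosphatases. They were 52.9% of the kinases, 22.2% of the promoter factors and 28.6% of the regulators, each list being described below. Of 12 further AP-1 proteins and partners, 2 reached 1 TPM in both libraries, Atf4 with 70.1 and 73.9 TPM and Ddit3, the stress factor CHOP, with 14.3 and 30.15 TPM. Atf7 followed with 0.74 and 0.97 TPM, and Fosl2 was lowest. Atf4, Atf7 and Ddit3 are relatives or partners of AP-1 proteins, not members of the Jun or Fos families. Of 39 other immediate early genes, 16 reached the minimum. Ppp1r15a, a regulatory subunit of a phosphatase of the translation factor eIF2α, had 522 and 913 TPM, Gadd45a, a growth arrest gene, 158 and 146 TPM, and Mcl1, which protects from apoptosis, 38.4 and 37.2 TPM. Ccn2 was lowest with 0 counts in both libraries.

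Phosphatases of the Dusp1 family other than Dusp1 had lower levels than Dusp1. Of 9 examined, 1 reached 1 TPM in both libraries, Dusp8 with 7.76 and 11.0 TPM, followed by Dusp16 with 0.14 and 0.34 TPM and Dusp7 with 0.20 and 0.27 TPM, and Dusp4 was lowest at 0.02 and 0.04 TPM. Of 17 MAP kinases and the kinases that activate them, 9 reached it. Map2k2, an activator of ERK kinases, had 90.0 and 105 TPM, Map2k3, an activator of p38 kinases, 105.3 and 69.3 TPM, and Mapk3, which encodes ERK1, 16.7 and 20.65 TPM. Map2k6 and Mapk13 had 0 counts in both libraries.

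Factors that act on immediate early promoters reached 1 TPM in 2 of 9 cases. These were Atf1, a CREB relative, with 6.24 and 6.47 TPM, and Srf, which binds the CArG box, with 2.83 and 3.20 TPM. Mrtfa, a cofactor of Srf, had 0.46 and 0.57 TPM and Mrtfb was lowest at 0.01 TPM in each library. Of 7 regulators of AP-1 or Egr proteins, 2 reached it, Cop1, a ubiquitin ligase that targets Jun, with 7.34 and 7.79 TPM and Men1, a binding partner of JunD, with 3.53 and 4.28 TPM. Det1 had 0.23 and 0.47 TPM and Nab2, a corepressor of Egr1, was lowest at 0.09 and 0.03 TPM. Median levels were 0.195 TPM over the AP-1 relatives, 0.345 TPM over the other immediate early genes, 0.155 TPM over the phosphatases, 1.125 TPM over the kinases, 0.265 TPM over the promoter factors and 0.345 TPM over the regulators. The median over all protein-coding genes was 0.02 TPM.

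**Figure D3:**
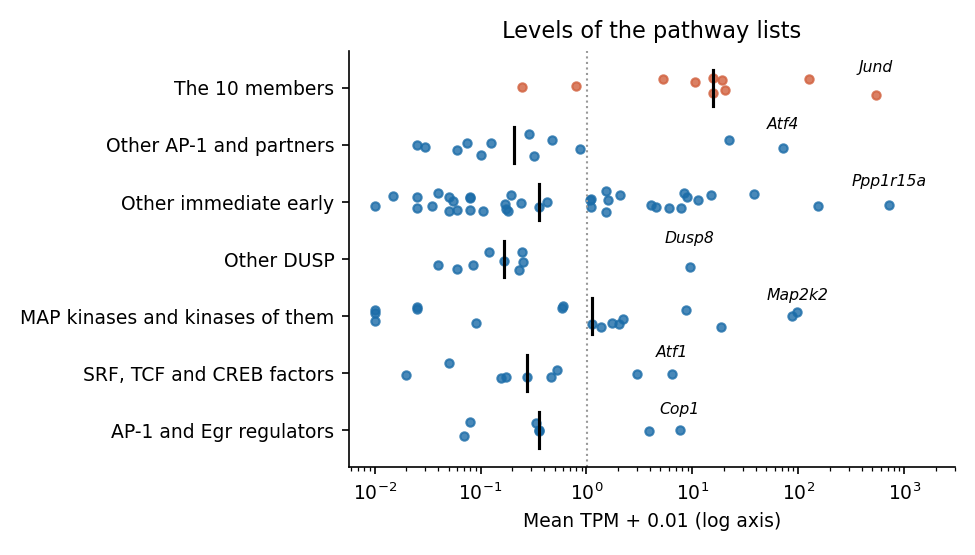
Mean TPM over the 2 libraries, plotted with 0.01 added on a log axis, for each gene of the 10 members and of 6 related lists; black bars are medians, the dotted line is 1 TPM and the highest gene of each list is named. The members have a median of 15.5 TPM, and the median of the kinases is the only other one above the line.

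The 2 libraries were compared to show how well each level is known, and not as conditions. Counts were set against each other with a two-sided exact binomial test at scaled library sizes, which covers counting error alone, with Benjamini-Hochberg adjustment over 10955 genes. By this test 6 of the 10 members differed, against 44.9% of all genes tested, and all 6 were higher in library 2, where 22.9% of all genes were higher and 22.0% lower. At unadjusted p under 0.05 there were 5598 genes. The biological coefficient of variation between the libraries was 0.240 over 9043 genes.

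Next to other genes the members' differences were of middling or small size. The median of the absolute log2 ratio over 5257 genes with 100 or more counts in each library was 0.21, and the log2 ratios of scaled CPM of the members, with 1 CPM added, ran from -0.08 to 0.34. Jund had a log2 ratio of 0.25 (95% interval 0.24 to 0.26), and 43.0% of those genes had a larger one in either direction. Dusp1 had 0.24 (0.21 to 0.27, adjusted p = 2.49e-62, exact binomial test), with 44.9% of genes larger, and Fos 0.29 (adjusted p = 4.46e-09, exact binomial test), with 36.3% larger. These 3 members had 1738 or more counts in each library. Jun had 0.13 (adjusted p = 0.000163), Ier2 0.11 (adjusted p = 0.0237) and Egr1 0.29 (adjusted p = 0.0118) by the same exact test.

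Junb, Ier3, Fosb and Atf3 did not pass. Junb had a log2 ratio of 0.08 (adjusted p = 0.185, exact binomial test), Ier3 of -0.08 (adjusted p = 0.228) and Fosb of -0.01 (adjusted p = 0.925; 0.0025 with total counts), with intervals of -0.02 to 0.19, -0.19 to 0.03 and -0.11 to 0.09. Atf3 had 0.34 (adjusted p = 0.055, exact binomial test), and without the added CPM 0.80 with an interval of 0.09 to 1.53, so its 29 and 44 counts leave its ratio poorly known. The call for Ier2 was lost with DESeq2 size factors (adjusted p = 0.0518), and Atf3 passed with total counts (adjusted p = 0.0427, exact binomial test). TPM was higher in library 2 for all 10 members, but the median gene also had a log2 TPM ratio of 0.16, and against it Ier3 and Fosb were lower.

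**Figure D4:**
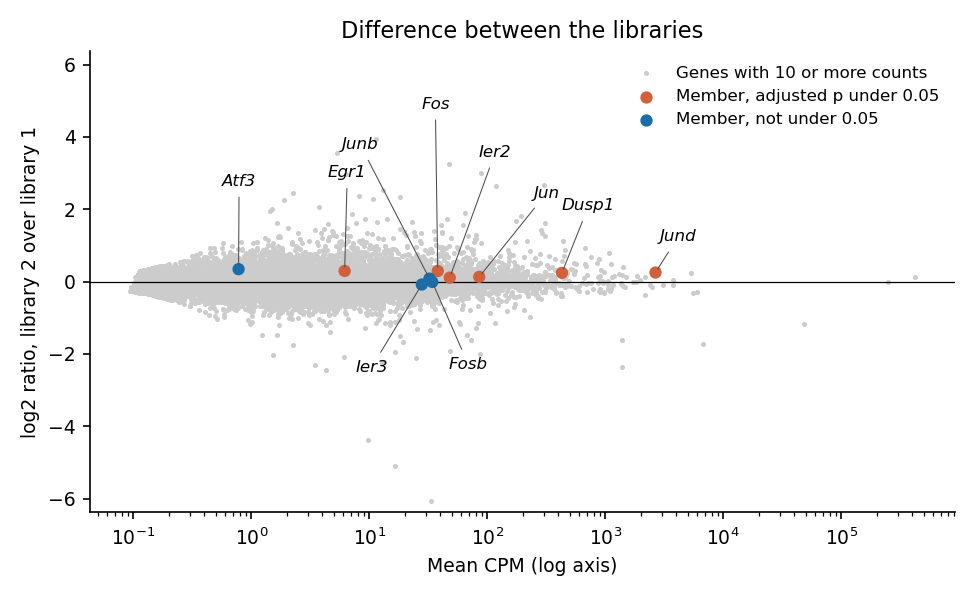
Log2 ratio of scaled CPM, library 2 over library 1 with 1 CPM added, against mean CPM on a log axis, for 10955 genes (grey) and the 10 members (orange where the adjusted p of the exact binomial test was under 0.05, blue where not). The members lie between -0.08 and 0.34, within the grey cloud at their CPM.

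For the related lists and the cell type markers the counts of genes called are to be read against the 44.9% of all genes called, 22.9% higher and 22.0% lower. Of the other immediate early genes 33 were tested, of which 9 were higher and 7 lower in library 2. Ppp1r15a had a log2 ratio of 0.40 and Gadd45a of -0.41, both past the threshold. Of 10 AP-1 relatives tested, 2 were higher, Ddit3 with 0.88 and Fosl1 with 0.44, and 2 were lower. Of 9 phosphatases tested, 3 were higher and 0 lower, and of 12 kinases 3 were higher and 5 lower, Map2k3 with -0.33. Of 8 promoter factors 1 was higher and 1 lower, as for 7 regulators. Of 9 macrophage markers tested 4 were higher, among them C1qc with 0.58 (adjusted p = 7.59e-11, exact binomial test), and 1, Mertk, was lower. Of 8 erythroid markers tested 5 were higher and 2 lower, of 7 neutrophil markers 3 and 1, and of 7 hepatoblast markers 1 and 3. Of 5 megakaryocyte markers tested 1 was higher and 1 lower, and of 5 mast cell and basophil markers 2 and 2. Of 5 endothelial markers 0 were higher and 1 lower, and of 3 lymphoid markers 0 differed. The part of any of these cells in the differences of the members was not tested.

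Base composition, length and exons played no part in choosing the genes. In the M21 transcripts, of which that of Jund is shorter than the one counted, GC content was highest in Jund at 67.1% and lowest in Fos at 51.9%. Over the 10 genes Spearman's rho with log2 TPM was 0.15 for GC content, -0.33 for M21 transcript length and -0.25 for the deposited length, given as a description, since the genes share 2 libraries. Of the members, Jund, Jun, Junb and Ier2 have 1 exon each. Prdx2, an abundant antioxidant gene of red cells with 93.3 and 225 TPM, overlaps only a longer Junb transcript of M21 and not the one counted. Ergic1, with 62 and 61 counts, and Gm8225, with 0 in both libraries, overlap, on the opposite strand, only longer forms of Dusp1, and Gm24748, with 0 in both, overlaps Atf3 outside the transcript counted. Beside the antisense genes of Jund and Jun, shared 31-base words with transcripts of another gene were 0% for 7 members and 0.08% for Fosb.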

How the data were processed

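Paired-end polyadenylated RNA sequencing of 2 libraries was used, as tables per gene and per transcript. Alignment was to mm10 with GENCODE M4, per the deposited listing; the sources used here do not give the aligner, quantifier, versions or strand setting. The deposited expected counts are estimates that divide shared reads among genes, and were rounded for tests; those of all 10 members were whole. The deposited TPM and FPKM values are length-corrected, and the deposited transcript percent is the share of a gene's TPM. The deposited credibility bounds are read as a signal of TPM precision, though the TPM of Jund lay above its bounds in both libraries.

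Library sizes were scaled by TMM factors (0.996 and 1.00) of edgeR 4.0.16 (R 4.3.3) over genes its expression filter kept. Each gene with at least 10 counts over both libraries was compared between them by an exact conditional binomial test, two-sided, with Benjamini-Hochberg adjustment, a threshold of 0.05 and a pseudocount of 1 CPM for ratios. The procedure was tested on simulated data that held counting error alone, and so not the further spread between these libraries. Intervals, exact at 95%, cover counting error only. Reads were not marked by molecule. Levels at another length used the same counts with the effective length changed.

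Members and lists were chosen with earlier results of these data known. Of each list the 3 highest and the 1 lowest by mean TPM were named, with the genes that overlap a member and are in the tables; all genes of the Jun and Fos families are given. Mertk, Rag1, Cd3e, Kit and Epor were named after their values were seen. Symbols and positions came from GENCODE M21, promoters from RefSeq. Alternatives were DESeq2 1.42.0 size factors, total counts with and without globins, TMM over all genes, other minima, pseudocounts and units, other transcript lengths and each library alone; the lengths, the Fos family against Jun and Junb in other units, and TMM over all genes were added after the data were seen. Python 3.11.15 with numpy 2.4.6, pandas 2.3.3, scipy 1.17.1 and matplotlib 3.10.9 did the rest.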

Additional observations from a re-analysis of the deposited data

How the results depend on the processing

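With 1 group, no value tests a condition, and TPM levels rest on the deposited transcript lengths. The summed level of the members was 1360 as FPKM, 3365 CPM from expected counts, 5079 TPM outside the globins and 1171 TPM with Jund at its M21 length and Fos at that of its coding transcript. The share of Jund in the Jun family was 95.7% by expected counts and 97.4% at the M21 length. The Fos family was 2.62% of the Jun family by expected counts, 2.62% with Jund at the M21 length and 2.85% with Fos at that of its coding transcript. The log2 ratio of Fosb turned positive with total counts (0.0025) and with TPM (0.13), and that of Ier3 with TPM (0.066), as TPM moves the median gene by 0.16. By the exact binomial test 5 members passed with DESeq2 size factors, 7 with total counts, with or without globins, and 6 with TMM over all genes, where 44.9% of all genes passed in each setting. With no minimum 6 passed and 29.5% of all genes, and with 50 or more counts 7 and 51.8%. No paired analysis was possible because there is 1 group. The count of members at 1 TPM or more, 8, ran from 7 at a minimum of 5 TPM to 10 with globins left out of the total, and each library alone gave 8. Shares and sums of each library alone are those printed beside their means.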
